A study of Mus musculus with 6 samples.

Results

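The genes described here are 33 genes of cholesterol and fatty acid synthesis, their regulation by sterols and sterol efflux, out of 24013 genes in the deposited expression table of mouse CD4 T cells. They were chosen by symbol: 7 of the mevalonate arm, 10 of the sterol arm, 6 that control SREBP or carry sterol, 8 of fatty acid synthesis and 2 sterol exporters. Total RNA was sequenced from 6 libraries, each the only one of its group: YAP cKO and WT stimulated natural regulatory T cells (nTregs), YAP cKO and WT fresh nTregs, and YAP cKO and WT naive CD4 T cells. The cKO cells were YAP flox/flox and CD4-Cre+, so Cre is driven by the CD4 promoter, which acts in the T lineage and includes cells that later become CD8 T cells. All mice were C57BL/6, and their age, their sex and the number behind each library are not stated in the labels. Lymph nodes and spleens were the source of the sorted cells, naive cells as CD4+ CD62L+ CD25- and nTregs as CD4+ CD25 high with either level of CD62L. Stimulated nTregs were cultured with antibodies to CD3 and to CD28, each at 2 µg/ml, and with 100 U/ml of IL-2. One label gives 24 h of stimulation and another 48 h, so the time is unsettled, and the stimulated cells also differ from fresh ones by culture.

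Cells make cholesterol from acetyl-CoA through mevalonate, the isoprenoid farnesyl diphosphate, squalene and lanosterol. When sterol in the endoplasmic reticulum is low, SCAP carries the SREBP factors to the Golgi for cleavage, and the freed factors switch on these enzymes, while INSIG proteins hold SCAP back when sterol is plentiful. LXR factors respond to oxysterols and switch on the exporters ABCA1 and ABCG1. T cells that enter growth and division need sterols and fatty acids for new membrane, and the mevalonate pathway is known to matter for the function of regulatory T cells.

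Levels are given in FPKM, which counts fragments per kilobase of a transcript and is scaled across libraries, so it compares genes per length. The sorts could be checked: Foxp3, the lineage factor of regulatory T cells, was at 57.8 FPKM in cKO and 56.9 in WT stimulated nTregs, at 45.9 in cKO and 46.6 in WT fresh nTregs, and at 3.30 in cKO and 2.98 in WT naive cells. Yap1 itself was at 0.235 FPKM in cKO and 0.169 in WT stimulated nTregs and is listed at 0 in the other 4 libraries, so it gives no check of the genotypes. Every direction between genotypes below therefore rests on the table's column names, in which the columns not named WT were read as cKO. One fragment on a transcript of 1 kb was worth an estimated 0.111 to 0.145 FPKM, and 10210 to 10893 genes per library had at least 1 FPKM. Of the members, 31 reached 1 FPKM in 2 or more libraries and entered the tests. Their estimated fragments had medians of 231 to 480 per library, and the fewest were 16.5, for Mvk in WT stimulated nTregs.

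The level of the members spanned a wide range, and most of the pathway was well expressed in every library. Acly, which makes cytosolic acetyl-CoA from citrate, was at 60.4 FPKM in cKO and 56.2 in WT stimulated nTregs, at 64.6 in cKO and 60.2 in WT fresh nTregs, and at 73.2 in cKO and 70.2 in WT naive cells. It varied least of the tested members, with a highest value 1.30 times the lowest. Insig1, which retains SCAP, was at 52.4 FPKM in cKO and 41.7 in WT stimulated nTregs, against 63.4 in cKO and 58.2 in WT fresh nTregs, and at 60.5 in cKO and 59.6 in WT naive cells. In both naive and in both fresh libraries Acly and Insig1 had the highest FPKM of the members. In both stimulated libraries Sc5d, the C5 desaturase of late sterol synthesis, took the first place, with 87.8 FPKM in cKO and 63.8 in WT. At the other end stood a pair of desaturases. Scd1, a stearoyl-CoA desaturase, was at 0.199 FPKM in cKO and 0.287 in WT stimulated nTregs, at 0.0470 in cKO and 0.0222 in WT fresh nTregs, and is listed at 0 in both naive libraries. Fads2, the delta-6 desaturase, was at 0.310 FPKM in cKO and 0.1 in WT stimulated nTregs, is listed at 0 in cKO and at 0.0779 in WT fresh nTregs, and is listed at 0 in both naive libraries. A count of 3 fragments would correspond to 0.0724 FPKM for Scd1 and 0.111 for Fads2 in cKO naive cells, so the zeros mark the limit of this depth. The paralog Scd2 was the stearoyl-CoA desaturase that was detected well, at 8.21 to 18.8 FPKM over the 6 libraries.

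**Figure D1:**
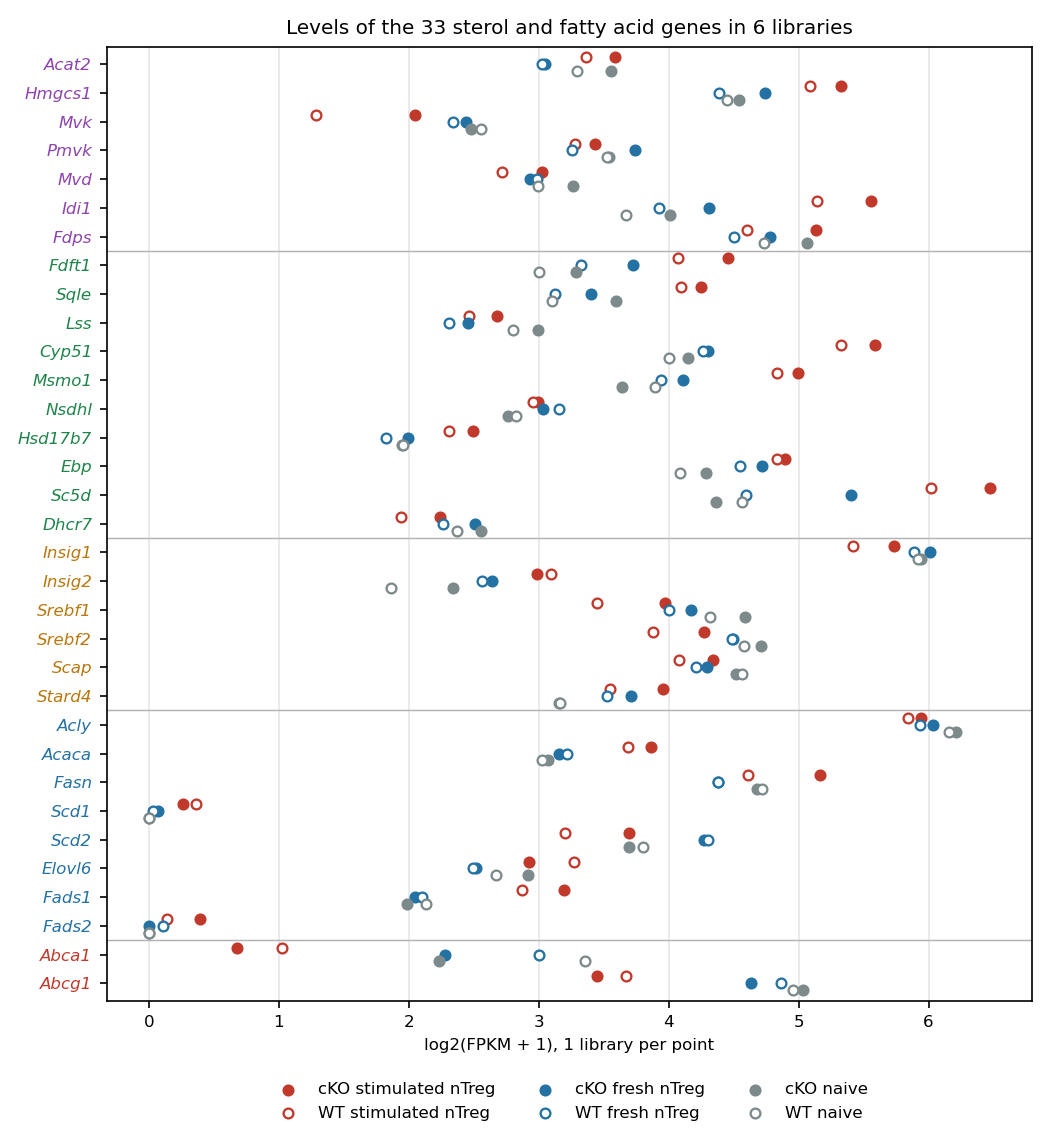
Levels of the 33 genes as log2(FPKM + 1), 1 point per library, with cKO filled and WT open, coloured by population. Symbol colours and lines separate the roles; Sc5d reaches 87.8 FPKM in cKO stimulated nTregs, and Scd1 and Fads2 lie near 0.

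Summed over a role, the sterol arm stood highest in stimulated nTregs. Its 10 genes summed to 254 FPKM in cKO and 208 in WT stimulated nTregs, against 143 in cKO and 113 in WT fresh nTregs, and 107 in cKO and 101 in WT naive cells. The 7 mevalonate genes summed to 150 FPKM in cKO and 116 in WT stimulated nTregs, against 102 in cKO and 82.5 in WT fresh nTregs, and 104 in cKO and 89.3 in WT naive cells. Both exporters together moved the other way, with 10.5 FPKM in cKO and 12.8 in WT stimulated nTregs, against 27.7 in cKO and 35.1 in WT fresh nTregs, and 35.5 in cKO and 39.3 in WT naive cells.

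The comparison of stimulated with fresh nTregs asks how the pathway differed after culture with the receptor antibodies and IL-2. Higher in stimulated nTregs were 6 of 10 genes of the sterol arm, Acat2, Hmgcs1 and Idi1 of the mevalonate arm and 4 genes of fatty acid synthesis, while both exporters and 3 regulators of the pathway were lower. Of the 31 tested members, 13 rose and 7 fell at an adjusted p under 0.05 (limma on log2(FPKM + 1), with both genotypes as the repeat). Over all 11224 genes tested, 22.5% rose and 27.3% fell, which is 49.8% in either direction, against 41.9% and 22.6% of the members. The median difference of the members was 0.23 on the log2 scale and that of all genes was -0.05. With the FPKM sum made equal in every library, the median of all genes was 0.47 and that of the members 0.79, and 22 members rose and 2 fell, beside 6714 of all genes that rose and 1020 that fell (2526 and 3060 without that step). Relative to the median of all genes the members stood 0.28 higher in the first scaling and 0.32 higher in the second.

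In the mevalonate arm, Idi1, the isomerase that makes dimethylallyl diphosphate, was at 46.0 FPKM in cKO and 34.3 in WT stimulated nTregs, against 18.8 in cKO and 14.2 in WT fresh nTregs. The stimulated and fresh libraries did not overlap, and the log2 difference was 1.23 ± 0.08 (SE, limma adjusted p = 0.000229). Hmgcs1, which makes HMG-CoA, was at 39.0 FPKM in cKO and 33.1 in WT stimulated nTregs, against 25.8 in cKO and 19.9 in WT fresh nTregs. It was higher in both stimulated libraries, by 0.64 ± 0.10 (SE, limma adjusted p = 0.00293). Acat2, the cytosolic thiolase at the head of the pathway, rose by 0.44. Mvk, mevalonate kinase, fell: it was at 3.13 FPKM in cKO and 1.44 in WT stimulated nTregs, against 4.44 in cKO and 4.06 in WT fresh nTregs. Its log2 difference was -0.72 ± 0.22 (SE, limma adjusted p = 0.0342), with both stimulated values below both fresh ones, but with equal FPKM sums it was -0.31 and did not pass (limma adjusted p = 0.215). Pmvk, Mvd and Fdps, the kinase, decarboxylase and farnesyl diphosphate synthase that follow it, did not pass the test.

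In the sterol arm 6 of 10 genes rose and none fell. Cyp51, the lanosterol 14-alpha-demethylase, was at 47.0 FPKM in cKO and 39.1 in WT stimulated nTregs, against 18.7 in cKO and 18.2 in WT fresh nTregs, a log2 difference of 1.17 ± 0.09 (SE, limma adjusted p = 0.000373). Sc5d, given above for stimulated cells, was at 41.3 FPKM in cKO and 23.1 in WT fresh nTregs, and differed by 1.25 ± 0.22 (SE, limma adjusted p = 0.00567). Its fresh libraries stood further apart than those of Cyp51, and its error was the larger. Sqle, the squalene epoxidase, was at 18.1 FPKM in cKO and 16.1 in WT stimulated nTregs, against 9.55 in cKO and 7.74 in WT fresh nTregs. Msmo1, the C4 methyl oxidase, was at 30.9 FPKM in cKO and 27.6 in WT stimulated nTregs, against 16.3 in cKO and 14.4 in WT fresh nTregs. Fdft1, squalene synthase, was at 21.0 FPKM in cKO and 15.8 in WT stimulated nTregs, against 12.2 in cKO and 9.03 in WT fresh nTregs. For these genes the libraries of the stimulated and fresh cells were apart in both genotypes, with log2 differences of 0.91 for Sqle, 0.89 for Msmo1 and 0.74 for Fdft1. Hsd17b7, the 3-keto reductase, rose by 0.49. Lss, Nsdhl, Ebp and Dhcr7, which act at the cyclization, decarboxylation, isomerization and last reduction steps, did not pass the test, and Dhcr7 was at 3.71 FPKM in cKO and 2.84 in WT stimulated nTregs, against 4.69 in cKO and 3.81 in WT fresh nTregs.

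Among the 6 genes of SREBP control and sterol carriage, 3 fell and none rose. Insig1 fell by 0.37 on the log2 scale. Srebf2, which encodes the SREBP that acts mainly on sterol genes, fell by 0.41. Srebf1, which encodes the SREBP that acts mainly on fatty acid genes, fell by 0.38. With each library scaled by its median ratio over 7030 genes, all 3 stayed negative, but with equal FPKM sums the sign of all 3 reversed. With equal sums the differences were positive, at 0.19, 0.13 and 0.16 in that order, and did not pass. Relative to the median of all genes, Insig1 stood at -0.33, Srebf2 at -0.37 and Srebf1 at -0.33, and with equal FPKM sums at -0.28, -0.34 and -0.31. Srebf2 was at 18.4 FPKM in cKO and 13.7 in WT stimulated nTregs, against 21.5 in cKO and 21.4 in WT fresh nTregs. Srebf1 was at 14.7 FPKM in cKO and 9.92 in WT stimulated nTregs, against 17.1 in cKO and 15.0 in WT fresh nTregs. In both genes the stimulated values lay below the fresh ones, and the WT stimulated library was the lowest of all 6. Insig2, Scap and Stard4, the last a carrier of cholesterol between membranes, did not pass the test.

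In fatty acid synthesis 4 of 6 tested genes rose. Fads1, the delta-5 desaturase, was at 8.17 FPKM in cKO and 6.31 in WT stimulated nTregs, against 3.14 in cKO and 3.28 in WT fresh nTregs, a log2 difference of 0.96 ± 0.16 (SE, limma adjusted p = 0.00397). Acaca, the acetyl-CoA carboxylase, rose by 0.59, Elovl6, an elongase of long-chain fatty acids, by 0.59, and Fasn, the fatty acid synthase, by 0.51. Fasn was at 34.8 FPKM in cKO and 23.5 in WT stimulated nTregs, against 19.8 in both fresh libraries, so most of its difference lay in cKO. Scd2 fell, with 11.9 FPKM in cKO and 8.21 in WT stimulated nTregs, against 18.3 in cKO and 18.8 in WT fresh nTregs, a log2 difference of -0.84 ± 0.16 (SE, limma adjusted p = 0.00745), but with equal FPKM sums it was -0.31 and did not pass (limma adjusted p = 0.088). Acly did not pass the test.

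Both exporters fell, and they were the 2 members called lower with equal FPKM sums as well. Abca1 was at 0.603 FPKM in cKO and 1.03 in WT stimulated nTregs, against 3.86 in cKO and 7.01 in WT fresh nTregs, a log2 difference of -1.79 ± 0.20 (SE, limma adjusted p = 0.00107). Abcg1 was at 9.89 FPKM in cKO and 11.8 in WT stimulated nTregs, against 23.9 in cKO and 28.1 in WT fresh nTregs, a log2 difference of -1.19 ± 0.11 (SE, limma adjusted p = 0.000581). For each, both stimulated values lay below both fresh values.

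**Figure D2:**
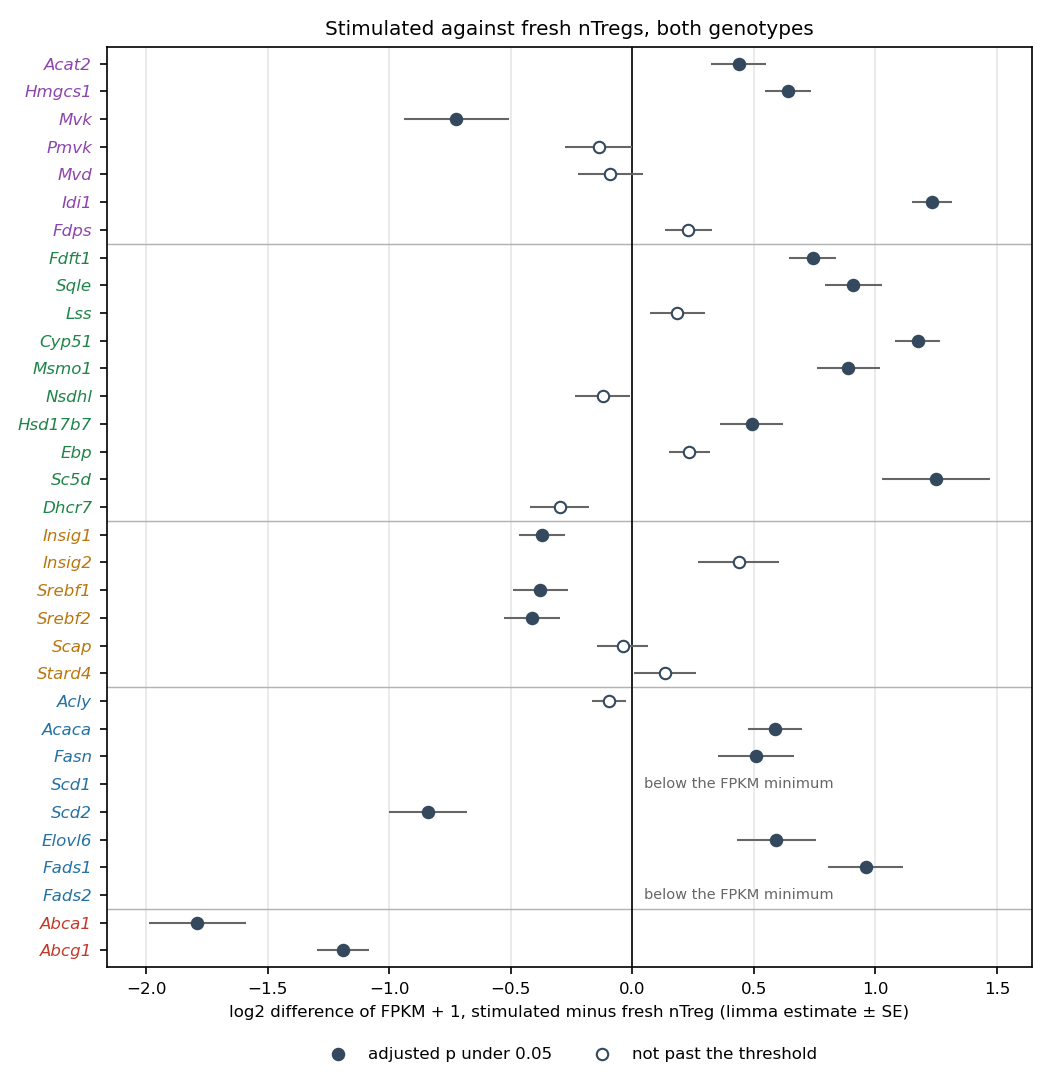
Log2 difference of FPKM + 1, stimulated minus fresh nTregs, for each member as the limma estimate with its SE over both genotypes. Filled points passed an adjusted p of 0.05: 13 rose, with Sc5d at 1.25 and Idi1 at 1.23, and 7 fell, with Abca1 at -1.79.

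These calls rest on 1 library per genotype and state, so p-values measure spread between libraries and not between mice. A genotype difference that varied between populations counts as part of that spread, because the fit only adds population and genotype. With the cKO or the WT fresh library left out, fewer members and fewer of all genes were called, the lone fresh library then being assumed to vary like the other groups. The median difference of the members was then 0.16 without the cKO and 0.22 without the WT fresh library, beside -0.05 and -0.03 for all genes. Still called with any 1 of the 6 libraries left out were Idi1, Hmgcs1, Cyp51, Sc5d, Sqle, Msmo1, Fdft1, Fads1, Abca1 and Abcg1. Genes of proliferation moved with the comparison: 24 of 25 rose, and their summed level was 868 FPKM in cKO and 602 in WT stimulated nTregs, against 398 in cKO and 356 in WT fresh nTregs. Markers of T cells moved the other way, with 7 of 7 lower and sums of 878 FPKM in cKO and 792 in WT stimulated nTregs, against 1601 in cKO and 1564 in WT fresh nTregs. Markers of B cells were lower too, with 2 of 3 tested genes called (Cd74 by 2.27 and Cd79b by 1.48 on the log2 scale) and sums of 12.0 FPKM in cKO and 12.2 in WT stimulated nTregs, against 40.7 in cKO and 49.2 in WT fresh nTregs. The part of these lists in the members' differences was not tested. In these bulk samples, fewer cells of a type and less RNA per cell cannot be told apart.

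The stretches before the starts of the members were searched for motifs, over all members with a window, whether they changed or not. RefSeq windows of 250 bases before a start (GRCm38.p6) were on hand for 25 of the 33 members (33 windows, since some have several starts) and for 32851 starts in all, and were searched on both strands. The letters TCACNCCAC, a form of the sterol regulatory element bound by SREBP, were found in 1 of 33 member windows, that of Hmgcs1, and in 1.05% of all windows. A CCAAT box (CCAAT, bound by NF-Y) was present in 19 of 33 member windows, 57.6%, and in 33.8% of all windows, and a GC box (GGGCGG, bound by Sp1) in 24 of 33 member windows, 72.7%, and in 32.7% of all windows. By member, 18 of 25 had a CCAAT box and 21 of 25 a GC box. The windows of all starts were not limited to genes expressed in these cells. These shares therefore do not set the members against expressed genes alone. CACGTG, an E-box, was found in 6 of 33 member windows and in 6.02% of all windows. The repeat of GGTNA after any 5 bases, a form of the DR4 element bound by LXR, was found in 1 window each of Abca1, Srebf1 and Fasn, and in 0.621% of all windows. The windows of Hmgcs1, Idi1, Cyp51 and Sc5d are printed because these genes rose with stimulation, with the sterol element, CCAAT boxes and E-boxes in capitals, from chr13:119690101-119690350 (plus strand), chr13:8885356-8885605 (plus), chr5:4104698-4104947 (minus) and chr9:42264301-42264550 (minus), each ending at the base before the start.
Hmgcs1: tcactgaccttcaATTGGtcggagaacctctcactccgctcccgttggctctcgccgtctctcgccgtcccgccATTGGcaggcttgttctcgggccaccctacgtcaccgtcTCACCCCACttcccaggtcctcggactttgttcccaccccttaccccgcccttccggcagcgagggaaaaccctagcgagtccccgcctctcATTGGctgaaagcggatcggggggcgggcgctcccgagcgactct
Idi1: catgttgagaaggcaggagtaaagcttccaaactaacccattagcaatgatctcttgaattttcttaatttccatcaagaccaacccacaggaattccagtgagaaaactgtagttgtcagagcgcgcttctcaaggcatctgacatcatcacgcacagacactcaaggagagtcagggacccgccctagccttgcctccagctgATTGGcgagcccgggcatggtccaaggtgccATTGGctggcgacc
Cyp51: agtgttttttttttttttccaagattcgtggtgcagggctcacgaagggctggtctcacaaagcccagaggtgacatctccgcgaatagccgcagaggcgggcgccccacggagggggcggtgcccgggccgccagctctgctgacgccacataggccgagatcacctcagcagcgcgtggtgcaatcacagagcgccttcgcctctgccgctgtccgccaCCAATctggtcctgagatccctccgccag
Sc5d: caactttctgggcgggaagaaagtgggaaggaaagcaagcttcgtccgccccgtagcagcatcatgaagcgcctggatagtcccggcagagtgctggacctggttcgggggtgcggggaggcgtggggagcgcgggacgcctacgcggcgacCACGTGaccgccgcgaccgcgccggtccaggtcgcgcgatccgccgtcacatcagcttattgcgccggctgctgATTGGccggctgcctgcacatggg
Of Abca1, the 30 bases around its DR4 match are shown, with the match in capitals (chr4:53159940-53159969, minus strand). They lie before one annotated start and inside the span of the gene as annotated.
Abca1: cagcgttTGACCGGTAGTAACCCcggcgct
The sterol element of Hmgcs1 begins 137 bases before its start and its nearest CCAAT box 45 bases before it. Idi1 has CCAAT boxes at 45 and 14 bases, Cyp51 one at 29 and Sc5d one at 24 bases before the start, each on one of the strands. These are matches of letters, and no binding was measured.

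The comparison of cKO with WT asks how these genes differed between the genotypes, as read from the column names. Most synthesis genes stood slightly higher in cKO than in WT, and Abca1 stood lower in all 3 populations, but no member passed the test across populations. Of 31 members 0 were called, where 0.374% of all 11224 genes tested were called (42 genes, limma). At an unadjusted p under 0.05 there were 8 members, 25.8%, against 12.0% of all genes. The fitted difference was above 0 in 27 of 31 members, against 53.8% of all genes, and its median was 0.17 for the members and 0.01 for all genes. In each of the 3 populations 15 members were higher in cKO, 48.4% of those tested, against 19.6% of all genes, and 1 was lower, Abca1, against 16.7% of all genes. The 15 were Acat2, Hmgcs1, Pmvk, Idi1 and Fdps of the mevalonate arm, Fdft1, Sqle, Lss, Cyp51, Ebp and Dhcr7 of the sterol arm, Insig1, Srebf1 and Srebf2, and Acly.

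Abca1 had the largest fitted gap between genotypes. It was at 0.603 FPKM in cKO and 1.03 in WT stimulated nTregs, at 3.86 in cKO and 7.01 in WT fresh nTregs, and at 3.71 in cKO and 9.23 in WT naive cells. The cKO to WT ratio was 0.584 in stimulated nTregs (0.403 to 0.838), 0.550 in fresh nTregs (0.482 to 0.629) and 0.402 in naive cells (0.351 to 0.459), with exact 95% intervals that cover the counting error of the estimated fragments only. Across populations the log2 difference was -0.73 ± 0.16 (SE, limma adjusted p = 0.196). Abca1 in naive cells, at -1.12, was the 1 member that was at least 2-fold apart in any population on the log2(FPKM + 1) scale, where the share of all genes that far apart in either direction was 1.9% in stimulated nTregs, 1.03% in fresh ones and 1.2% in naive cells. The other exporter differed less: Abcg1 was at 31.8 FPKM in cKO and 30.1 in WT naive cells, a ratio of 1.06 (0.980 to 1.14), and its ratios were 0.849 (0.787 to 0.918) in fresh and 0.840 (0.740 to 0.954) in stimulated nTregs.

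Among the synthesis genes the lowest p was that of Idi1, at 46.0 FPKM in cKO and 34.3 in WT stimulated nTregs, at 18.8 in cKO and 14.2 in WT fresh nTregs, and at 15.1 in cKO and 11.7 in WT naive cells. Its cKO to WT ratios were 1.34, 1.33 and 1.29 in that order, all intervals lay above 1, and the log2 difference was 0.38 ± 0.07 (SE, limma adjusted p = 0.128). Fdft1 was at 21.0 FPKM in cKO and 15.8 in WT stimulated nTregs, at 12.2 in cKO and 9.03 in WT fresh nTregs, and at 8.75 in cKO and 7.02 in WT naive cells. Fdps was at 34.2 FPKM in cKO and 23.3 in WT stimulated nTregs, at 26.4 in cKO and 21.7 in WT fresh nTregs, and at 32.4 in cKO and 25.5 in WT naive cells. In both genes cKO was higher in each pair and each counting interval lay above 1, with log2 differences of 0.36 for Fdft1 (limma adjusted p = 0.196) and 0.38 for Fdps (limma adjusted p = 0.171). Srebf1, Sqle, Hmgcs1 and Dhcr7 had fitted differences of 0.32, 0.31, 0.23 and 0.24, with adjusted p-values of 0.291 to 0.407 (limma).

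**Figure D3:**
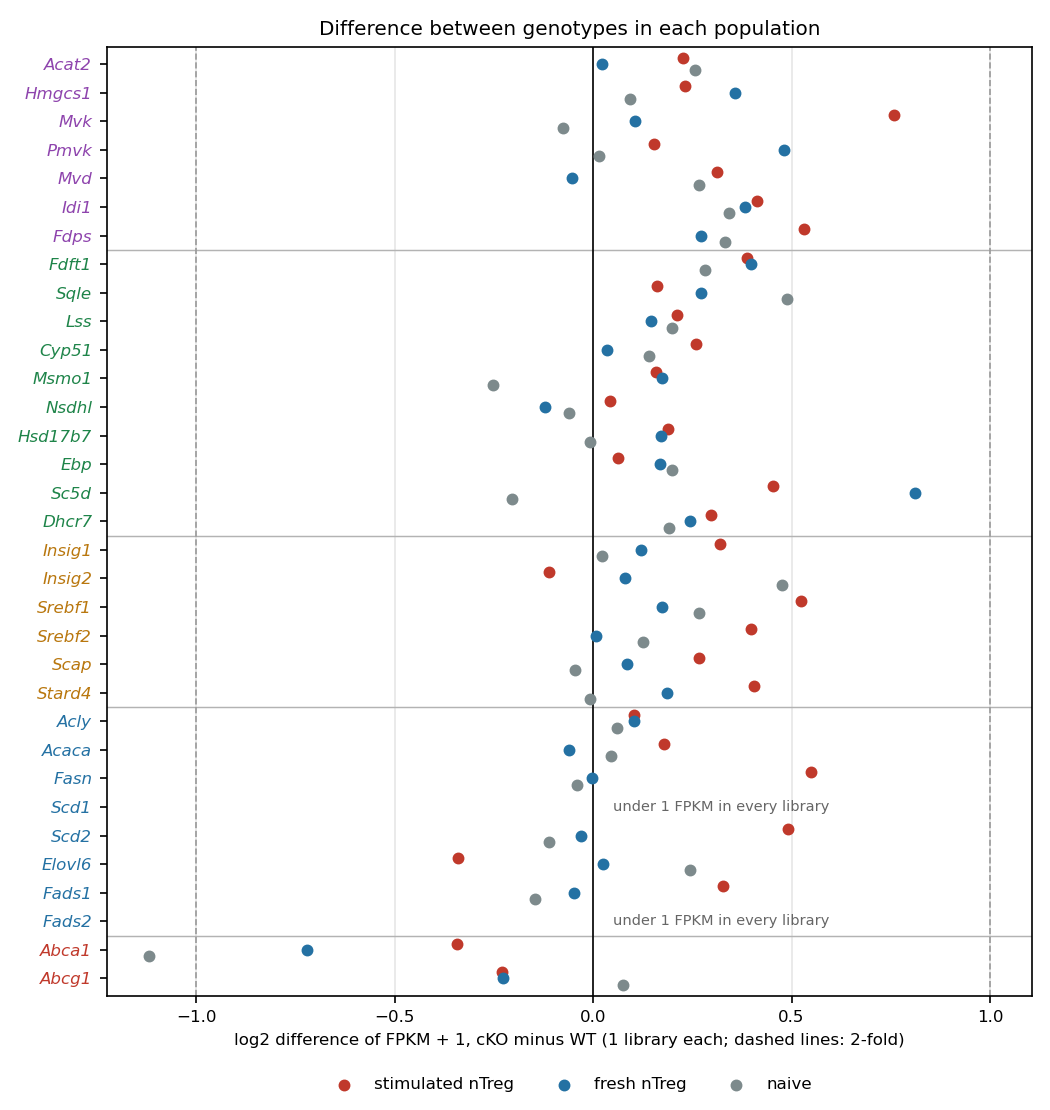
Log2 difference of FPKM + 1, cKO minus WT, in stimulated nTregs, fresh nTregs and naive cells, 1 library per genotype and point, with dashed lines at 2-fold. In stimulated nTregs 27 of 31 members lie right of 0, and Abca1 in naive cells, at -1.12, is the 1 point past a dashed line.

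Within populations there was 1 library per genotype and no test. In stimulated nTregs 27 of 31 members were higher in cKO, against 55.2% of all genes measured, with a median of 0.26 against 0.04. All 7 mevalonate genes and all 10 sterol genes were higher there, with medians of 0.31 and 0.20. In fresh nTregs 23 of 31 were higher, against 50.0% of all genes, with a median of 0.11. In naive cells 20 of 31 were higher, against 49.8% of all genes, with a median of 0.08. Counting intervals could be formed for 28 tested members, and they lay above 1 for 15 in stimulated nTregs, 10 in fresh nTregs and 5 in naive cells, and below 1 for 3, 2 and 2. No such intervals were formed for the other genes, so these counts cannot be set against a share over all genes. The intervals cover counting error only and shift with the scaling. With equal FPKM sums the median in stimulated nTregs was 0.11, against -0.11 for all genes. The proliferation list also stood higher in cKO, with a median of 0.64 in stimulated nTregs, 0.36 in fresh nTregs and 0.07 in naive cells, and 1 of its 25 genes, Top2a, was called across populations. Summed NK cell markers were at 69.3 FPKM in cKO and 24.6 in WT stimulated nTregs, at 33.5 in cKO and 22.2 in WT fresh nTregs, and at 23.0 in cKO and 36.0 in WT naive cells, with 6 of 8 markers at 1 FPKM or more in some library. One gene carried the sum in nTregs, Nkg7, at 63.7 FPKM in cKO and 19.9 in WT stimulated nTregs and at 27.8 in cKO and 15.0 in WT fresh nTregs; the other NK markers summed to 5.63 in cKO and 4.65 in WT stimulated nTregs and to 5.70 in cKO and 7.17 in WT fresh nTregs. In naive cells Nkg7 was at 1.9 FPKM in cKO and 2.8 in WT, and the other NK markers summed to 21.1 in cKO and 33.1 in WT. There 0 of 5 measured NK markers were higher in cKO, against 49.8% of all genes. The part of either list in the members' differences was not tested.

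For several members the ratio was furthest from 1 in stimulated nTregs. Fasn had a cKO to WT ratio of 1.48 (1.40 to 1.58) in stimulated nTregs, against 0.998 (0.933 to 1.07) in fresh nTregs and 0.972 (0.913 to 1.04) in naive cells. Scd2 had ratios of 1.46 (1.27 to 1.68) in stimulated nTregs, 0.979 (0.891 to 1.08) in fresh nTregs and 0.920 (0.814 to 1.04) in naive cells. Srebf2 had ratios of 1.34 in stimulated nTregs, with its interval above 1, and of 1.01 in fresh nTregs and 1.09 in naive cells. Mvk had a ratio of 2.17 (1.23 to 4.21) in stimulated nTregs, on about 46.3 fragments in cKO and 16.5 in WT, and of 1.09 and 0.937 in fresh and naive cells. Whether these differences between populations exceed the spread between mice was not tested. Sc5d changed side: its ratio was 1.38 (1.30 to 1.45) in stimulated nTregs and 1.79 (1.65 to 1.93) in fresh nTregs, but 0.863 (0.781 to 0.953) in naive cells, at 19.6 FPKM in cKO and 22.7 in WT. Elovl6 did so the other way, with 0.766 (0.659 to 0.891) in stimulated nTregs and 1.22 (1.03 to 1.45) in naive cells.

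**Figure D4:**
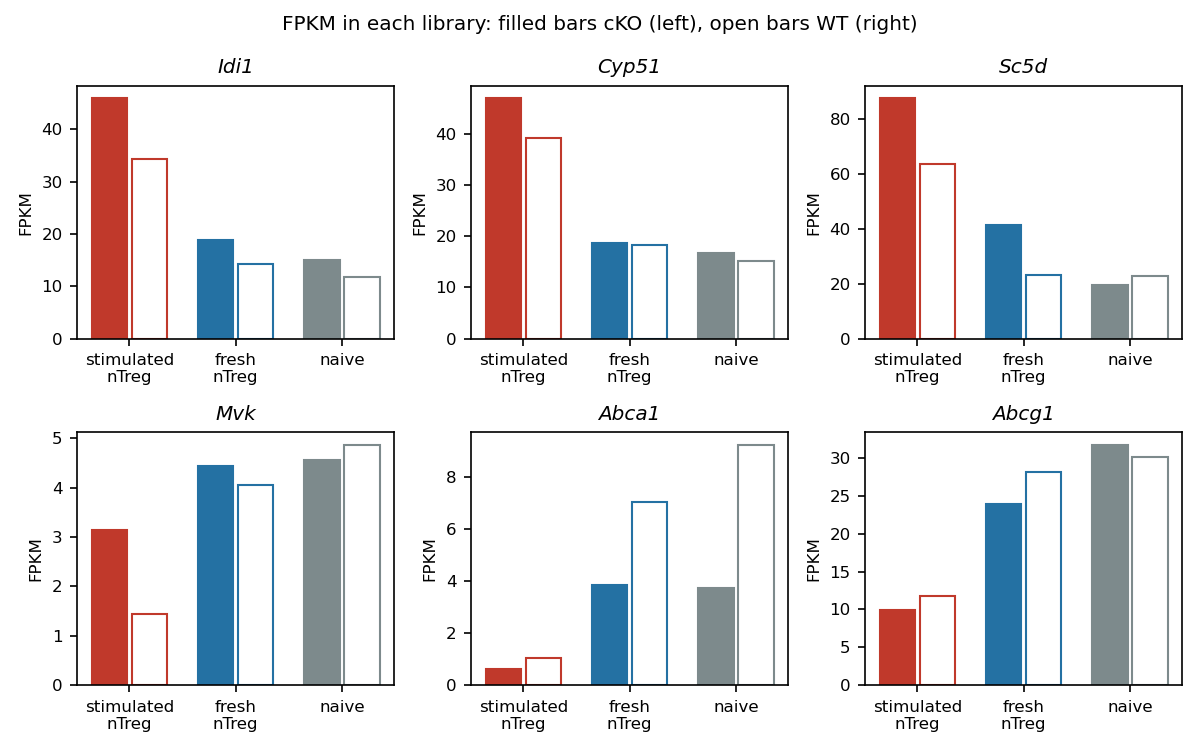
FPKM of 6 members in each library, with filled cKO bars left of open WT bars in stimulated nTregs, fresh nTregs and naive cells (1 library per bar, axes from 0). Idi1, Cyp51 and Sc5d are highest in stimulated nTregs, Abca1 and Abcg1 lowest there, and Abca1 is lower in cKO in each pair.

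The response to stimulation had the same sign in cKO and in WT in 28 of 31 members, 90.3%, against 83.6% of all genes tested, with 18 members higher and 10 lower in both. The response in cKO minus that in WT had a median of 0.17, with 21 members above 0 (67.7%) and 10 below, against a median of 0.04 and 55.2% above 0 for all genes. Cyp51 responded by 1.29 in cKO and 1.06 in WT, Idi1 by 1.25 in cKO and 1.22 in WT, and Sc5d by 1.07 in cKO and 1.43 in WT. Fasn, by contrast, responded by 0.79 in cKO and 0.23 in WT, and Mvk by -0.40 in cKO and -1.05 in WT. With 1 library per group the difference between responses was not tested.

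Between the resting populations the pathway differed less. Comparing fresh nTregs with naive cells, 4 of 31 members rose and 2 fell, against 16.5% and 14.7% of all genes, which is 31.3% in either direction (limma). Ebp, the sterol isomerase, was at 25.3 FPKM in cKO and 22.4 in WT fresh nTregs, against 18.5 in cKO and 16.0 in WT naive cells, a log2 difference of 0.45 ± 0.09 (SE, limma adjusted p = 0.0121). Fdft1 rose by 0.38, Stard4 by 0.46 and Scd2 by 0.54. Lss, the lanosterol synthase, fell, with 4.50 FPKM in cKO and 3.97 in WT fresh nTregs, against 6.99 in cKO and 5.96 in WT naive cells, a log2 difference of -0.51 ± 0.11 (SE, limma adjusted p = 0.0197). Acat2 fell by 0.39. None of the 6 calls was made with either fresh library left out, which leaves a lone fresh library. With equal FPKM sums 10 members rose and none fell, beside 2755 of 11343 genes that rose and 665 that fell. The median difference was then 0.10 for the members and 0.15 for all genes.

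Genes around the pathway were taken from 9 further lists of 140 genes, 116 of them tested. On stimulation 26 rose and 32 fell, which is 22.4% and 27.6%, close to the 22.5% and 27.3% of all genes, and the counts per list below are to be read against those shares. Among LXR factors and targets 6 of 9 fell and none rose: Mylip, the ubiquitin ligase that degrades lipoprotein receptors, by 1.61, the transporter Abca7 by 1.60 and the phosphodiesterase Smpdl3a by 1.39 on the log2 scale. Among the remaining enzymes of sterol synthesis, Lbr, a C14 sterol reductase that is also a lamin receptor, fell by 0.99. In sterol uptake, transport and storage 4 of 16 rose and 7 fell, with Lrp8, a lipoprotein receptor, at 0.94, and the sterol transporters Gramd1a at -1.55 and Npc2 at -0.89 and the oxysterol-binding protein relative Osbpl5 at -1.01. In SREBP processing and sterol sensing 1 of 7 rose and 3 fell, and in the isoprenoid branch 4 of 14 rose and 2 fell.

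In the other fatty acid genes the directions were mixed. Of 15 further genes of synthesis and elongation 3 rose and 3 fell: the acetyl-CoA synthetases Acss2 and Acss1 fell by 1.65 and 1.61, while Hsd17b12, the elongation reductase, and the elongase Elovl1 rose by 0.88 and 0.79. Of 22 genes of fatty acid activation and glycerolipid synthesis 9 rose and 4 fell, with Pcyt1a, which sets the rate of phosphatidylcholine synthesis, at 1.46 and the acyl-CoA synthetase Acsl4 at 1.20. Acsl6, another acyl-CoA synthetase among those that rose, was at 2.11 FPKM in cKO and 2.05 in WT stimulated nTregs and is listed at 0 in the other 4 libraries. Of 18 genes of fatty acid oxidation 1 rose and 3 fell. Of 10 upstream growth signals 3 rose and 3 fell, among them the amino acid transporter Slc7a5 at 1.91, the growth regulator Myc at 1.85 and Foxo1, a factor of quiescent T cells, at -1.13. Between genotypes 0 of the 116 genes were called across populations (limma).

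Transcripts of a member did not always move together. Acly has 2 deposited transcripts, and the share of its FPKM on NM_134037 was 42.5% in cKO and 29.6% in WT stimulated nTregs, 43.2% in cKO and 34.0% in WT fresh nTregs, and 50.6% in cKO and 44.7% in WT naive cells. The share was higher in cKO in each pair, while the gene's total differed by a ratio of 1.04 to 1.08. In Scap, which escorts SREBP, the share on NM_001103162 was 70.1% in cKO and 58.5% in WT stimulated nTregs, 42.8% in cKO and 40.1% in WT fresh nTregs, and 65.9% in cKO and 52.8% in WT naive cells. Pmvk and Insig2 did not share that direction in every pair. In Pmvk the more abundant transcript held 86.6% in cKO and 89.1% in WT stimulated nTregs. It held 71.9% in cKO and 79.1% in WT fresh nTregs, and 73.1% in cKO and 72.4% in WT naive cells. In Insig2 the more abundant one held 68.4% in cKO and 55.0% in WT stimulated nTregs. It held 64.6% in cKO and 64.2% in WT fresh nTregs, and 54.3% in cKO and 58.2% in WT naive cells. How the reads shared by 2 transcripts were divided is a model estimate, and its error is not given in the table. Insig2 has 2 more transcripts in the table without its symbol, and counting them changed WT naive cells to 3.34 FPKM, against 2.64 without them.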

How the data were processed

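Naive CD4 T cells and nTregs gave 1 library per group, from 322 ng of total RNA, per the labels' protocols, with ribosomal RNA depletion, strand-specific libraries and 12 PCR cycles. Per the submitters' processing notes, the authors used FastQC, TopHat, Cuffdiff, Cuffnorm and mm10, with no versions given. The deposited unit is FPKM per RefSeq transcript, scaled by the authors with Cuffnorm. A gene's FPKM changes with the length assigned to it and with what else the library holds, so scaling was varied.

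The table held 32547 transcripts in 32860 rows, 165 of them repeated with identical values and counted once. Names came from RefSeq accessions for 32101 transcripts and from the deposited symbol for 397, and 49 had none. FPKM was summed per gene. No counts are given, so fragments were estimated from the lowest step of FPKM times length, which cannot give Srebf1 a value, and its intervals leave out the error of that estimate and of PCR duplicates, which carried no mark.

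limma (3.58.1, R 4.3.3) was fitted to log2(FPKM + 1) of 11224 genes with at least 1 FPKM in at least 2 libraries, by population and genotype with an intensity trend, leaving 2 residual and 4.01 prior degrees of freedom. Benjamini-Hochberg adjusted p-values under 0.05 were called. The log2(FPKM + 1) scale understates the fold of low genes. The script was tested on simulated data. Within a population, values were compared without a test, over genes at 1 FPKM in either library. Alternatives were another pseudocount, other minimums, 2 other scalings, no trend, nTregs alone and each library left out. All members are named, and of other lists some of the called genes with the largest differences, while others are not reported here. The members and lists were chosen with earlier results of these data known.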

Additional observations from a re-analysis of the deposited data

Results flagged for a closer look

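Sc5d and Elovl6 stood on opposite sides of WT in different populations, each beyond its counting interval, and the difference between populations was not tested because each group has 1 library. The cKO to WT ratio of Sc5d was 1.38 in stimulated nTregs and 1.79 in fresh nTregs, but 0.863 in naive cells. The ratio of Elovl6 was 0.766 in stimulated nTregs and 1.22 in naive cells.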

How the results depend on the processing

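Between stimulated and fresh nTregs, 20 members were called, and leaving out each library gave 11 to 21, with 11 when either fresh library was left out. Between fresh nTregs and naive cells 6 members were called, against 1 with no FPKM minimum, 10 with equal FPKM sums, and 0 to 13 with each library left out. Equal FPKM sums gave medians of 0.11 for cKO minus WT in stimulated nTregs, 0.71 for stimulated minus fresh in cKO and 0.72 in WT (0.26, 0.24 and 0.15 as reported), beside medians of all genes of -0.11, 0.44 and 0.54. The stimulation differences of Insig1, Srebf1 and Srebf2 changed sign, from negative to 0.19, 0.16 and 0.13. That scaling divides fresh libraries by 1.09 and stimulated ones by 0.693 to 0.773 and so raises every gene's difference. Median-ratio scaling divides fresh libraries by 1.00 and stimulated ones by 0.942 to 0.969, and it reversed none of the members' called differences. On stimulation 15 members then rose and 6 fell, beside 2889 and 2661 of 11236 genes. Over all genes, no FPKM minimum left 4 genes called between genotypes in place of 42. No member was called between genotypes under any alternative. Counting all 4 Insig2 transcripts was chosen after seeing the data. No paired analysis was possible because the labels carry no replicate numbers and each group has 1 library. The fit itself holds genotype as a term when it compares stimulated with fresh nTregs. Depth limits Mvk, Scd1 and Fads2 most.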
